A study of Mus musculus with 6 samples.

Results

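The genes described here encode the subunits of oxidative phosphorylation (OXPHOS), the 5 protein complexes of the inner mitochondrial membrane that carry electrons to oxygen and make ATP. They were taken from a table of normalized gene counts by symbol. A protein-coding row was a member when its name began with mt-, with Nduf followed by a, b, c, s or v, with Uqcr, with Cox4 to Cox8 or with Atp5, or was Sdha, Sdhb, Sdhc or Sdhd. This gave 101 of 17320 rows, 13 from the mitochondrial genome and 88 from the nuclear genome on 19 chromosomes. Sorted by symbol, 43 members belonged to complex I, 4 to complex II, 9 to complex III, 16 to complex IV and 19 to complex V. The other 10 were Cox7a2l, the complex I assembly factors Ndufaf1 to Ndufaf8 and Ndufb1-ps. The last has a name of the pseudogene kind, but it is listed as protein coding and matched the RefSeq gene Ndufb1. By that name it is a subunit of complex I, yet it was left out of the counts, medians and sums of that complex. All 101 members had a mean of at least 1 normalized count and entered the test, and 8 had a mean under 10.

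Complex I (NADH dehydrogenase) and complex II (succinate dehydrogenase) pass electrons to ubiquinone, complex III (the cytochrome bc complex) passes them on to cytochrome c, and complex IV (cytochrome c oxidase) reduces oxygen. Complexes I, III and IV pump protons, and complex V (ATP synthase) uses the resulting gradient to make ATP. Complex II is encoded in the nucleus alone, whereas the other complexes are assembled from products of both genomes, so their supply depends on transcription in separate compartments. Mast cells draw on mitochondrial ATP production when they are activated as well as for growth.

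The libraries came from peritoneal cells (PC) of C57BL/6 mice, grown for 9 days with stem cell factor (SCF) and IL-3, a culture that yields peritoneal cell-derived mast cells (PCMC). There were 3 Mcemp1+/+ libraries (replicates 1, 2 and 3) and 3 labelled Mcemp1-/- (replicates 4, 5 and 6), in which CRISPR-Cas9 had removed bases from exon 1 of Mcemp1, a gene for a mast cell membrane protein, in every cell of the mouse. The age of the mice, and whether each library came from a separate mouse or culture, is not given in the sources used here, so a p-value here covers the variation between libraries, of which some may be technical. Mcemp1 itself was at 9.80, 7.68 and 16.9 normalized counts in Mcemp1+/+ and at 0.201, 0.0849 and 4.23 in replicates 4, 5 and 6. The allele is described as a deletion with a frameshift and an early stop codon. How much of its transcript remains is not stated, and what this level says about the labels was not tested. Over all genes tested, the median absolute log2 difference of the library labelled Mcemp1-/- replicate 6 was 0.14 to 0.17 from the Mcemp1+/+ libraries and 0.26 to 0.28 from replicates 4 and 5, which differed from each other by 0.10. Results are therefore given with and without it.

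The makeup of the cultures moved in the same way. The 10 mast cell markers (Kit, Cpa3, Fcer1a and others, none of them under 1 in every library) summed to between 23066 and 23934 normalized counts in Mcemp1+/+, 43646 and 44867 in replicates 4 and 5, and 24151 in replicate 6. The 9 neutrophil precursor markers (Mpo, Elane and others) summed to between 8679 and 14376 in Mcemp1+/+, to 477 and 352 in replicates 4 and 5 and to 13076 in replicate 6, and the 7 macrophage markers to between 120 and 169, to 4.49 and 3.14, and to 120 in the same order. The 6 eosinophil markers were at 43.6 to 125 in Mcemp1+/+ and at 8.73 or less in all libraries labelled Mcemp1-/-, and the 5 stromal markers were at 76.0 in Mcemp1+/+ replicate 2 and at 0.907 to 5.01 elsewhere. Xist, which marks cells of female mice, was at 1297 in Mcemp1+/+ replicate 3 and at 1481 in replicate 6, whereas the other libraries had less than 1. The part that the cell makeup or the sex of the donors had in any difference of an OXPHOS gene was not tested. In bulk RNA, fewer cells of a type and less RNA per cell cannot be told apart.

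Many nuclear OXPHOS genes are known to carry sites for nuclear respiratory factor 1 (NRF1), for ETS factors such as GABPA, or for YY1 close to their start. RefSeq windows of GRCm38.p6, from 250 bases before to 50 bases after the gene start, were matched for 75 members. A gene was counted when any of its windows held the letters. The NRF1 letters searched, a palindrome, stand in capitals in the Uqcrc1 window printed here. They lay on either strand in 7 of the 75 (9.33%), against 2.39% of the 9716 tested genes with a window and 1.07% of all 27025 genes with a window. CCGGAAG (ETS) lay in 19 (25.3%), against 20.6% and 9.93%. AAGATGGC (YY1) lay in 11 (14.7%), against 5.47% and 3.19%, and 33 members (44.0%) held at least 1 of these motifs, against 26.5% and 13.4%. Among the members with a window, the YY1 letters were in 7 of 32 of complex I and 3 of 15 of complex V. They were in none of those of complexes II, III and IV, which number 3, 5 and 11. These matches are a description of the letters and not evidence of binding.

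The windows of 5 members whose levels set replicates 4 and 5 apart from Mcemp1+/+ are printed 5′ to 3′ on the strand of the gene, with the motif letters in capitals (in reverse complement, CTTCCGG or GCCATCTT, where the motif lies on the other strand). They are Sdhb (chr4:140961021-140961320, plus strand, ETS letters from base 7 after the start), Sdhd (chr9:50603800-50604099, minus strand, ETS letters on the other strand at -46), Uqcrc1 (chr9:108936398-108936697, plus strand, NRF1 letters from base 31), Atp5pb (chr3:105959214-105959513, minus strand, YY1 letters on the other strand at -3) and Cox6a1 (chr5:115348909-115349208, minus strand, NRF1 letters at -162 and ETS letters on the other strand at -16). Sdhb and Sdhd are shown together because these subunits of a single complex carried the same ETS letters and moved in opposite directions in replicates 4 and 5. Each of the 5 printed windows holds motif letters. The windows of Ndufa1, Ndufa13, Ndufc2, Ndufv1, Ndufv3 and Atp5g1, whose levels also set replicates 4 and 5 apart, hold none. Whether the letters are linked to the levels was not tested.
Sdhb: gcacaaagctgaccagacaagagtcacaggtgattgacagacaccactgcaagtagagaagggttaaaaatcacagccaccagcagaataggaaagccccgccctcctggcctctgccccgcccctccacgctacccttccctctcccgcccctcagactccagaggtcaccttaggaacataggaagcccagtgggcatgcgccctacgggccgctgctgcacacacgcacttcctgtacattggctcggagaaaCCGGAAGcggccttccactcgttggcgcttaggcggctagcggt
Sdhd: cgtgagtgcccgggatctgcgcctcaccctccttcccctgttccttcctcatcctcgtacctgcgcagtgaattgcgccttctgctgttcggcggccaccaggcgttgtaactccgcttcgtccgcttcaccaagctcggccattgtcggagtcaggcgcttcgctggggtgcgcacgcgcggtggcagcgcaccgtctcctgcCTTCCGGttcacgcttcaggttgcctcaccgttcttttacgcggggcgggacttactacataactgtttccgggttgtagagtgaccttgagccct
Uqcrc1: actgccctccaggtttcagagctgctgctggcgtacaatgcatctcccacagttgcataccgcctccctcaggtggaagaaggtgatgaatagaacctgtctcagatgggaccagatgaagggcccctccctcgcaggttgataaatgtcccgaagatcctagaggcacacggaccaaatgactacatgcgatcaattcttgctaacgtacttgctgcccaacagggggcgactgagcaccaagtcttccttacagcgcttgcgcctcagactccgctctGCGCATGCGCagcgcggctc
Atp5pb: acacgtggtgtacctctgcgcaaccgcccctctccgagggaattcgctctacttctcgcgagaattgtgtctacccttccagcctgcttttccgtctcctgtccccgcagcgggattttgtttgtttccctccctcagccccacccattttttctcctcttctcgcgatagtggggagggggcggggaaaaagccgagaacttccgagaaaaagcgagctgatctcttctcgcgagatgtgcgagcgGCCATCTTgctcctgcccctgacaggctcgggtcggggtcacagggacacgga
Cox6a1: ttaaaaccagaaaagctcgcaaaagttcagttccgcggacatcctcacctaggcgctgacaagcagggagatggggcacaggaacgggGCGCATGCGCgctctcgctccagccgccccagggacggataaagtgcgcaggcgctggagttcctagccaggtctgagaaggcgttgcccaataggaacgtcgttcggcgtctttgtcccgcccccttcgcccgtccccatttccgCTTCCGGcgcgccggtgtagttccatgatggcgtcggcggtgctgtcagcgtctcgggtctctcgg

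To ask whether loss of Mcemp1 was accompanied by a change in OXPHOS transcripts, the libraries labelled Mcemp1-/- were compared with Mcemp1+/+ in limma on log2(normalized count + 0.479), with Benjamini-Hochberg adjustment across the 13413 genes whose mean reached 1. No member passed an adjusted p of 0.05. The lowest adjusted p among members was 0.15, for Uqcrq. Over all genes tested, 0.0596% were called lower and 0.0149% higher, so that few calls of any kind were made with all 6 libraries. At an unadjusted p under 0.05, 8 members were lower and 3 higher (7.92% and 2.97%), against 13.8% and 11.6% of all genes. Without the mean-variance trend in eBayes, none of the members passed either, and 6 of them reached an unadjusted p under 0.05. No member reached a fitted change of 2-fold, whereas 10.4% of all genes did.

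The log2 fold changes of the members ran from -0.34 (Uqcrq) to 0.31 (Atp5pb), with a median of -0.02 (-0.037 without replicate 6) and 58 of 101 negative. Their median absolute log2 fold change was 0.11, against 0.22 over all genes tested, and among genes with a mean of at least 5 it was 0.11 for 97 members and 0.20 for 10446 genes. Between the Mcemp1+/+ libraries the median coefficient of variation was 4.97% for the 88 nuclear members, below the 6.97% over all genes with a mean of at least 5, and 7.16% for the 13 mitochondrial genes, slightly above it. The groups did not overlap for 11 members with lower and 5 with higher values in all 3 libraries labelled Mcemp1-/- (15.8% in all), against 14.8% in each direction and 29.6% in all over the genes tested. By this count the members moved less between the groups than the table as a whole. Of the 11 lower members, 6 belonged to complex I (among them Ndufc2, Ndufv1, Ndufb8, Ndufa2 and Ndufs8), 1 to complex II (Sdhc), 2 to complex III (Uqcrq and Uqcrc2) and 2 to complex V (Atp5g1 and Atp5b). The 5 higher members were Ndufa13 and Ndufb2 of complex I and Atp5pb, Atp5h and Atp5j of complex V.

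Replicates 4 and 5 stood apart from Mcemp1+/+ more than replicate 6 did. Of the 88 nuclear members, 25 and 28 lay inside the range of the Mcemp1+/+ libraries in replicates 4 and 5, and 42 did so in replicate 6. The same count was not taken over all genes. Over all genes tested, the median absolute log2 difference from the Mcemp1+/+ libraries was 0.30 to 0.32 for replicates 4 and 5. It was 0.14 to 0.17 for replicate 6, so this contrast is not particular to the members. Without replicate 6, 11 members were called lower and 6 higher (10.9% and 5.94%), against 22.5% and 19.5% of 13412 genes. The share called was therefore below that of the table in both directions, and most of all among higher genes. Of the 17 members called, 7 were inside the Mcemp1+/+ range in replicate 6. When the libraries with Xist were left out (Mcemp1+/+ replicate 3 and replicate 6), a comparison chosen after seeing the data, 19 members were called lower and 5 higher, against 22.8% and 19.1% of 13372 genes, and 14 of these 24 were among the 17. The 10 others were all lower. Among them were Uqcrc2 (log2 fold change -0.29), Ndufa10 (-0.28), Ndufb5 (-0.28), Atp5b (-0.26), Cox4i1 (-0.20), Ndufs1 (-0.19), Sdha (-0.19) and Atp5a1 (-0.16), together with the assembly factor Ndufaf4 (-0.43). In what follows, "either fit" means the fit with all 6 libraries and the fit without replicate 6, and a call made only in the libraries without Xist is named as such.

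**Figure D1:**
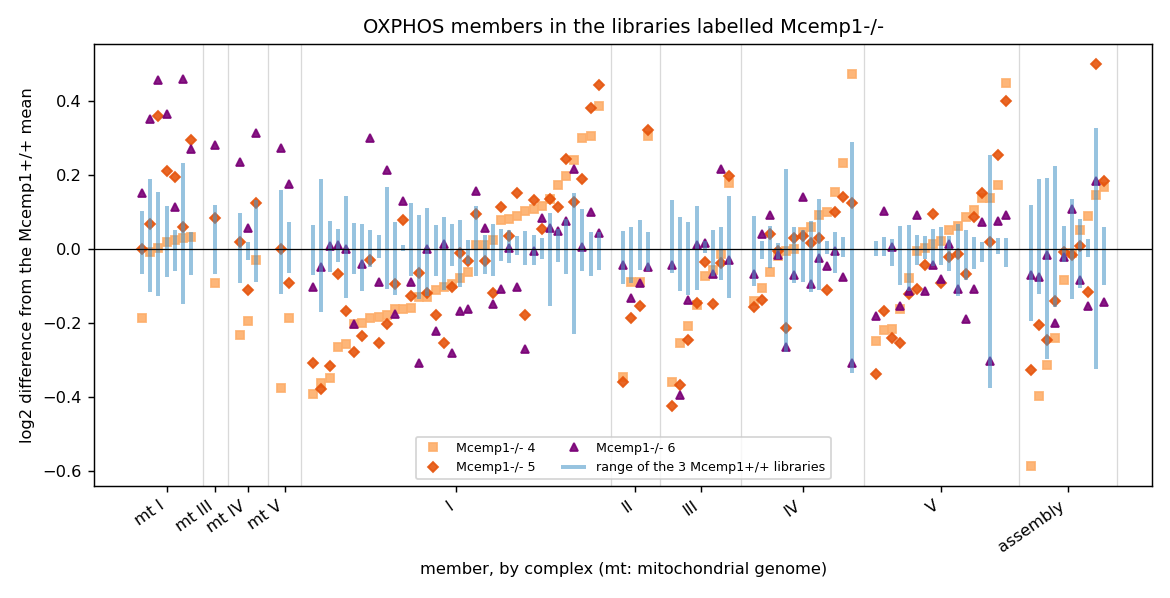
Log2 difference of each of the 101 members from its Mcemp1+/+ mean (vertical axis) in the 3 libraries labelled Mcemp1-/- (points), sorted within each complex by replicate 4, with the range of the 3 Mcemp1+/+ libraries as a vertical line. Replicates 4 and 5 lie close together and leave the Mcemp1+/+ range in both directions, while 42 of 88 nuclear members of replicate 6 stay inside it and its 13 mitochondrial genes all lie above 0. The count inside the range was not taken over all genes.

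The 2 genomes were compared by the summed level of their members. The 13 mitochondrial genes summed to 24848, 25721 and 28150 normalized counts in Mcemp1+/+ and to 25034, 28020 and 31330 in replicates 4, 5 and 6, or between 2.53% and 3.29% of each library's total. The 78 nuclear subunit genes of complexes I to V summed to 7034, 6997 and 6567 in Mcemp1+/+ and to 6748, 6568 and 6603 in replicates 4, 5 and 6. The groups overlapped in both sums. The mitochondrial sum was 3.53, 3.68 and 4.29 times the nuclear sum in Mcemp1+/+ and 3.71, 4.27 and 4.74 times in replicates 4, 5 and 6, and here too the groups overlapped. The libraries with Xist held the highest mitochondrial sum of each group and the highest ratio of each group.

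**Figure D2:**
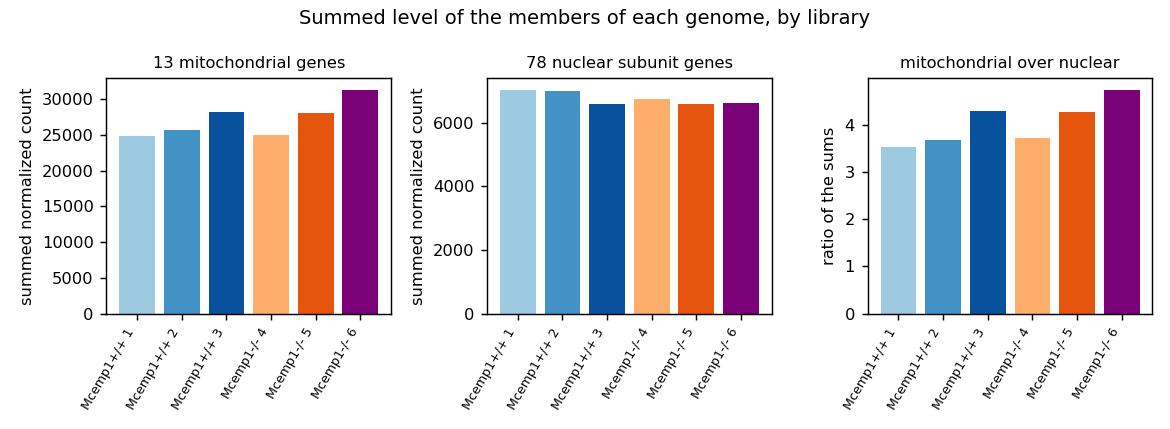
Summed normalized count (vertical axis, from 0) of the 13 mitochondrial genes and the 78 nuclear subunit genes, and the ratio of these sums, as 1 bar per library. The ratio runs from 3.53 to 4.29 in Mcemp1+/+ and from 3.71 to 4.74 in the libraries labelled Mcemp1-/-.

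Among the mitochondrial genes, 9 had a positive and 4 a negative log2 fold change, with a median of 0.11 against -0.05 for the 88 nuclear members and -0.01 over all genes tested. Without replicate 6 the mitochondrial median was 0.029 and the nuclear one -0.04, and over the libraries left out in turn the mitochondrial median ran from 0.029 to 0.18. None was called with all 6 libraries (lowest adjusted p = 0.25 from limma, for mt-Nd2), none was called without replicate 6, and the groups overlapped for all 13. The 7 mitochondrial subunits of complex I had a median of 0.18 with all libraries and of 0.11 without replicate 6, and mt-Cytb of complex III was at 0.09 and -0.0050. The 3 of complex IV had a median of 0.0056 and of -0.11 without replicate 6, and the 2 of complex V of -0.04 and -0.16, so that the sign turned for complexes III and IV. Replicate 6 was the highest of the 6 libraries for 11 of the 13 genes and lay above the Mcemp1+/+ mean for all of them. Replicate 4 was the lowest for 6 genes, and Mcemp1+/+ replicate 1 for the other 7.

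The largest mitochondrial log2 fold change was that of mt-Nd4l, a membrane subunit of complex I, at 217, 234 and 264 normalized counts in Mcemp1+/+ and 238, 305 and 326 in replicates 4, 5 and 6 (0.27, standard error 0.14, adjusted p = 0.25). Replicate 4 was inside the Mcemp1+/+ range and replicates 5 and 6 were above it. mt-Nd2, another membrane subunit of complex I, gave 0.20 (standard error 0.10), with 1428, 1531 and 1548 in Mcemp1+/+ and 1533, 1842 and 1810 in replicates 4, 5 and 6. mt-Co1, the catalytic subunit of complex IV, was at 7500, 7756 and 8751 in Mcemp1+/+ and 7810, 8698 and 9915 in replicates 4, 5 and 6, and made up 30.2% to 31.6% of the mitochondrial sum in every library. mt-Co3, a further core subunit of complex IV, was the lowest at -0.08, with 1896, 1834 and 1888 against 1634, 1733 and 1946, so that replicates 4 and 5 were below and replicate 6 above all Mcemp1+/+ libraries.

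mt-Atp8, a small subunit of complex V, spanned 374 in replicate 4 to 587 in replicate 6, and the mt-Atp6 gene that follows it, which encodes a part of the proton channel, was at 2679, 2791 and 2949 in Mcemp1+/+ and 2461, 2631 and 3166 in replicates 4, 5 and 6. The direction of mt-Atp6 turned with the library left out: its log2 fold change was -0.03 with all libraries, 0.042 without replicate 4 and 0.0014 without Mcemp1+/+ replicate 3. mt-Nd6, the complex I gene on the light strand, made up 2.01% to 2.44% of the mitochondrial sum, and its share was highest in the libraries with Xist (2.32% and 2.44%). Genes that overlap share reads: mt-Atp8 (M, 7766 to 7969) and mt-Atp6 (7927 to 8607) share 43 bases, mt-Nd4l (9877 to 10173) and mt-Nd4 (10167 to 11544) share 7, and mt-Nd5 and mt-Nd6 share 14 on opposite strands. How such reads were counted is not given in the sources used here.

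**Figure D3:**
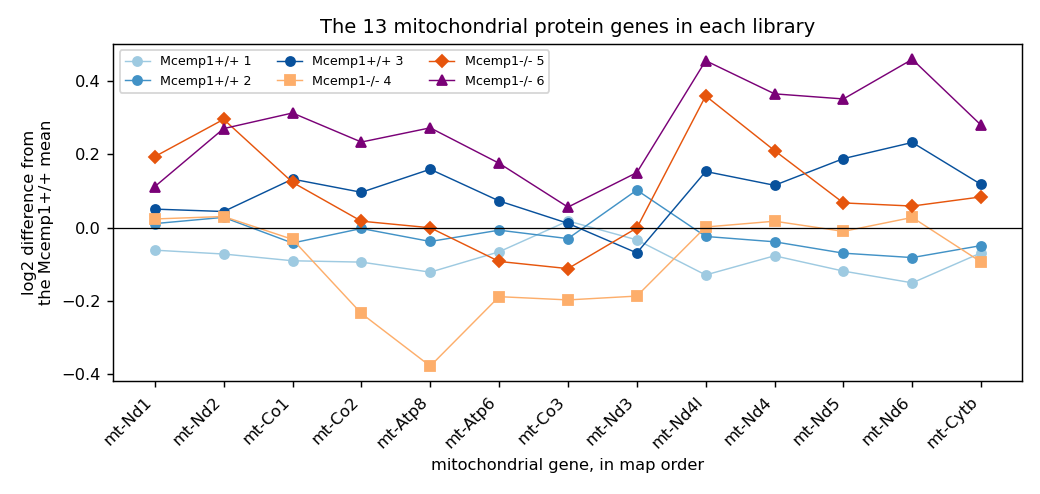
Log2 difference of each of the 13 mitochondrial genes from its Mcemp1+/+ mean (vertical axis), in the order of the mitochondrial map, with 1 line per library. Replicate 6 runs above 0 throughout, from 0.06 at mt-Co3 to 0.46 at mt-Nd6, and replicate 4 reaches -0.38 at mt-Atp8.

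The 36 nuclear subunits of complex I had a median log2 fold change of -0.08 (-0.048 without replicate 6), with 20 negative, and their sum was 1643, 1651 and 1574 normalized counts in Mcemp1+/+ and 1558, 1554 and 1578 in replicates 4, 5 and 6. Ndufc2, an accessory subunit of the membrane arm (chromosome 7), was at 50.5, 46.0 and 48.6 in Mcemp1+/+ and 36.7, 38.9 and 44.95 in replicates 4, 5 and 6, a log2 fold change of -0.27 (standard error 0.09, adjusted p = 0.17) and of -0.35 without replicate 6 (adjusted p = 0.0096 from limma). All libraries labelled Mcemp1-/- were below all Mcemp1+/+ libraries. Ndufv1, the flavin-binding subunit that takes electrons from NADH, was at 61.4, 58.5 and 55.8 against 50.7, 48.1 and 50.8 (-0.23, standard error 0.07). For Ndufv1 replicate 6 lay with replicates 4 and 5, below all Mcemp1+/+ libraries.

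The nuclear subunits of complex I with the highest log2 fold changes were accessory subunits. Ndufa1, an X-linked subunit of the membrane arm, was at 26.7, 28.7 and 27.97 in Mcemp1+/+, 36.4 and 37.9 in replicates 4 and 5 and 28.6 in replicate 6, so that it rose by 0.41 on the log2 scale without replicate 6 (adjusted p = 0.0051 from limma) and gave 0.29 with it (adjusted p = 0.20). Ndufa13 was at 46.1, 42.4 and 45.6 against 55.2, 58.3 and 47.8, with a log2 fold change of 0.26 (adjusted p = 0.17) and of 0.34 without replicate 6 (adjusted p = 0.0092). For Ndufa13 replicate 6 was above the Mcemp1+/+ libraries and below replicates 4 and 5. Of the other subunits, Ndufv3 (-0.37), Ndufs6 (-0.33) and Ndufb8 (-0.22) were also called lower without replicate 6. The core subunits Ndufs1, Ndufs7, Ndufs8 and Ndufv2 were not called in either fit. Ndufs1 was called lower in the libraries without Xist.

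In complex II the subunits parted. Sdhb, the iron-sulfur subunit (chromosome 4), was at 73.8, 75.6 and 70.2 normalized counts in Mcemp1+/+, 90.5 and 91.6 in replicates 4 and 5 and 70.6 in replicate 6. Sdhd, a membrane anchor (chromosome 9), was at 114, 114 and 104 in Mcemp1+/+, 86.9 and 86.1 in replicates 4 and 5 and 107 in replicate 6. In both genes replicates 4 and 5 left the Mcemp1+/+ range, Sdhb upward and Sdhd downward, and replicate 6 stayed inside it. Without replicate 6 the log2 fold changes were 0.31 for Sdhb (standard error 0.06, adjusted p = 0.0070) and -0.35 for Sdhd (standard error 0.06, adjusted p = 0.0069), and with all libraries they were 0.19 and -0.25, neither called. Sdha, the flavoprotein that oxidizes succinate, was at 231, 235 and 211 against 211, 198 and 205 (-0.14), and Sdhc, the other anchor, at 79.1, 73.9 and 71.9 against 70.3, 67.2 and 70.2 (-0.11). These were not called in either fit, and Sdha was called lower in the libraries without Xist. The sum of the 4 genes was 498, 498 and 457 in Mcemp1+/+ and 459, 442 and 454 in replicates 4, 5 and 6, which overlapped. The log2 ratio of the mean sums was -0.10, and 3 of the 4 genes had a negative log2 fold change.

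Complex III held the member with the lowest log2 fold change. Uqcrq, a small subunit bound to cytochrome b (chromosome 11), was at 41.6, 39.95 and 36.1 normalized counts in Mcemp1+/+ and 32.7, 30.2 and 29.7 in replicates 4, 5 and 6, with all libraries labelled Mcemp1-/- below the lowest Mcemp1+/+ library. The log2 fold change of Uqcrq was -0.34 with all libraries (standard error 0.08, adjusted p = 0.15) and -0.31 without replicate 6 (adjusted p = 0.030), so it was among the members on which replicate 6 did not lie with Mcemp1+/+. Uqcrc1, a core protein (chromosome 9), was at 160, 140 and 140 in Mcemp1+/+, 114 and 109 in replicates 4 and 5 and 142 in replicate 6, and its log2 fold change was -0.39 without replicate 6 (adjusted p = 0.0091) and -0.28 with it. Its partner core protein Uqcrc2 was at 134, 132 and 117 against 110, 107 and 116 (-0.20, adjusted p = 0.18) and was not called without replicate 6 (adjusted p = 0.052). The catalytic Rieske subunit Uqcrfs1 and the small subunits Uqcrb, Uqcrh, Uqcr10 and Uqcr11 were not called in either fit, and Uqcr10 lay on the positive side at 0.11. The 8 nuclear genes summed to 662, 626 and 597 in Mcemp1+/+ and to 562, 551 and 614 in replicates 4, 5 and 6. Cyc1, which encodes the cytochrome c1 subunit of complex III, falls outside the symbol rule and is not part of this sum.

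In complex IV few subunits moved. Its 13 nuclear members had a median log2 fold change of -0.0078 (0.014 without replicate 6) and a sum of 1052, 1028 and 997 normalized counts in Mcemp1+/+ against 1043, 1014 and 1009 in replicates 4, 5 and 6, and the groups overlapped for all 16 of its members. Cox6a1 (chromosome 5), the isoform of most tissues, was the only member of the complex called without replicate 6: it was at 102, 99.6 and 98.7 in Mcemp1+/+, 118 and 111 in replicates 4 and 5 and 95.0 in replicate 6, below all other libraries (0.19, adjusted p = 0.038, against 0.10 with all libraries). Cox4i1, a regulatory subunit, was at 179, 170 and 157 against 153, 151 and 161 (-0.12, adjusted p = 0.28), and was called lower in the libraries without Xist. The core-associated subunits Cox5a and Cox5b were not called in either fit. Ndufa4, named for complex I but now known as a subunit of complex IV, was at 77.1, 79.6 and 79.4 against 77.6, 78.3 and 77.7, so that it stayed between 77.1 and 79.6 in all 6 libraries.

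In complex V the members without overlap on the higher side were genes of the peripheral stalk, which holds the catalytic head still. On the lower side were a gene of a catalytic subunit and, among the genes of the ring subunit, Atp5g1 alone. This grouping was made after the values were seen. Atp5pb, subunit b of the stalk (chromosome 3), was at 365, 367 and 347 normalized counts in Mcemp1+/+ and 490, 474 and 383 in replicates 4, 5 and 6, with all libraries labelled Mcemp1-/- above all Mcemp1+/+ libraries. Its log2 fold change of 0.31 (standard error 0.11, adjusted p = 0.17) became 0.42 without replicate 6 (standard error 0.05, adjusted p = 0.0014), and it had the lowest adjusted p of all members in that fit. Atp5h, subunit d of the stalk, was at 110, 107 and 107 against 122, 129 and 114 (0.17, and 0.21 without replicate 6, adjusted p = 0.022), and Atp5j, the coupling factor of the stalk, at 81.4, 84.5 and 84.5 against 91.8, 92.7 and 87.8 (0.12, not called in either fit). The groups did not overlap for these stalk genes, but they did for the remaining stalk gene Atp5o, whose row spans more than a single annotated locus, at 108, 114 and 106 against 111, 102 and 103.

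Of the catalytic subunits, Atp5b was at 907, 923 and 825 in Mcemp1+/+ and 789, 741 and 793 in replicates 4, 5 and 6 (-0.19, adjusted p = 0.19), and Atp5a1 at 837, 829 and 739 against 758, 736 and 739. In both, Mcemp1+/+ replicate 3 was well below replicates 1 and 2, and both were called lower in the libraries without Xist. Atp5c1, the central shaft, was not called in any of these fits. Together Atp5b and Atp5a1 made up 54.8%, 54.9% and 53.2% of the nuclear complex V sum in Mcemp1+/+ and 49.5%, 49.1% and 52.0% in replicates 4, 5 and 6, so this share was lower in all libraries labelled Mcemp1-/-. Atp5g1, which encodes the ring subunit c, was at 41.2, 40.5 and 39.98 against 34.0, 31.9 and 35.7 (-0.26, standard error 0.07, adjusted p = 0.15, and -0.29 without replicate 6, adjusted p = 0.014). The membrane subunits Atp5k (-0.23) and Atp5md (-0.19) were called lower without replicate 6 as well, and for both replicate 6 was inside or above the Mcemp1+/+ range, at 29.4 and 47.0. Atp5g3, which encodes the same ring subunit as Atp5g1 at a higher level per kb, was not called in either fit. Its values were 163, 164 and 143 in Mcemp1+/+ and 163, 155 and 145 in replicates 4, 5 and 6 (-0.02). The sum of the 17 nuclear members was 3179, 3194 and 2943 in Mcemp1+/+ and 3125, 3006 and 2949 in replicates 4, 5 and 6, which overlapped.

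**Figure D4:**
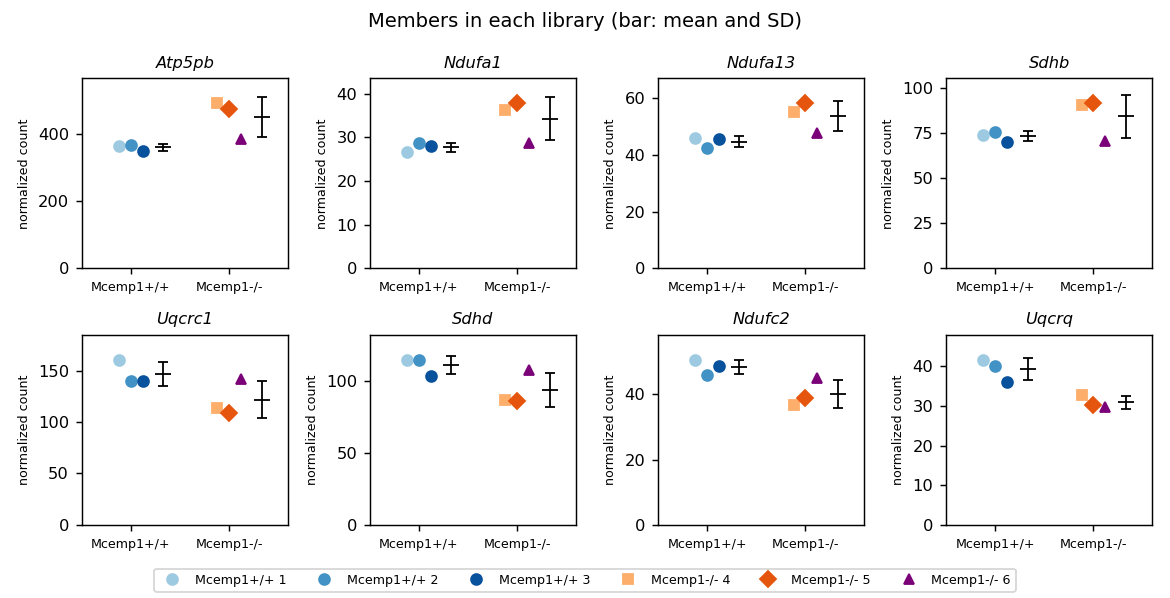
Normalized count (vertical axis, from 0) of 8 members in each library (points), with the mean and SD of each group as a bar. In replicates 4 and 5 the upper 4 genes lie above and the lower 4 below the Mcemp1+/+ libraries, while replicate 6 lies nearer to Mcemp1+/+ except for Uqcrq (29.7, against 36.1 to 41.6 in Mcemp1+/+).

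None of the assembly and related genes was called in either fit. Ndufaf6 had the lowest log2 fold change of them, at 5.21, 5.05 and 4.10 normalized counts in Mcemp1+/+ and 3.01, 3.69 and 4.52 in replicates 4, 5 and 6 (-0.33, standard error 0.19), and Ndufaf2 the highest, at 8.88, 6.98 and 5.47 against 7.77, 10.1 and 7.98 (0.28, standard error 0.21). Both groups overlapped for each gene. Cox7a2l, which helps complexes III and IV to join into supercomplexes, was at 89.1, 84.0 and 83.3 against 80.5, 84.9 and 84.1.

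Levels of different genes were compared per length, as normalized count per kb of the shortest principal transcript of GENCODE vM21 in the mean of the 3 Mcemp1+/+ libraries, which was possible for 100 members. The mitochondrial genes had a median of 1930 per kb, from 406 (mt-Nd3) to 5180 (mt-Co1), and the nuclear members a median of 64.1, from 2.64 (Cox6b2) to 462 (Atp5b). The levels of the genomes did not overlap except that Atp5b lay above mt-Nd3. Among nuclear subunits the median rose from 48.7 per kb in complex I through 70.9 in complex II and 90.5 in complex III to 124 in complex V and 139 in complex IV, with wide overlap between neighbours in this order. The assembly and related genes had a median of 7.61, with Cox7a2l at 79.4 as their highest. For 9 members the longest principal transcript was more than 1.5 times the shortest, so their level per kb depends on that choice. Ndufb4 was the lowest subunit of complex I, at 5.95 per kb, and reads that it shares with closely related gene copies may have been counted elsewhere or not at all, so its level is uncertain.

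**Figure D5:**
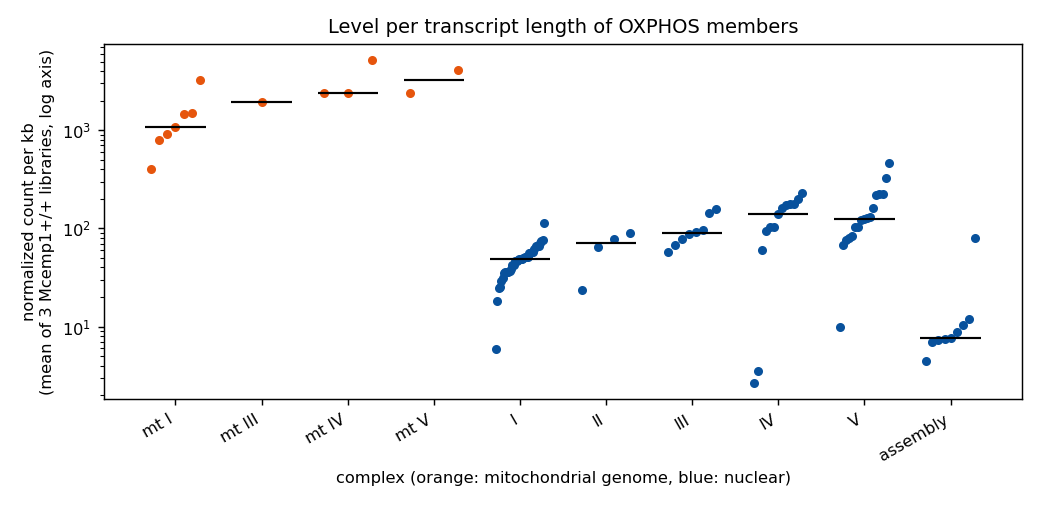
Level per transcript length (vertical axis, normalized count per kb, mean of 3 Mcemp1+/+ libraries, log axis) of 100 members by complex and genome, with 1 point per gene and the median of each set as a line. Mitochondrial genes lie between 406 and 5180 and nuclear members between 2.64 and 462.

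Paralogs of a subunit differed in level. Cox6b1 was at 178 per kb and its testis isoform Cox6b2 at 2.64, a ratio of 55.4 to 90.5 over the 6 libraries. Cox7a2 was at 104 per kb and Cox7a1, the isoform of heart and skeletal muscle, at 3.54, a ratio of 20.4 to 44.8. The groups overlapped in both ratios. For subunit c of complex V, which is made from 3 genes with the same mature protein, Atp5g3 was at 219 per kb, Atp5g1 at 68.0 and Atp5g2 at 9.83. Atp5g3 was 3.31, 3.37 and 2.98 times Atp5g1 in Mcemp1+/+ and 3.997, 4.04 and 3.39 times in replicates 4, 5 and 6, so replicates 4 and 5 were above all others. The size of this ratio depends on the transcript chosen, since the principal transcripts of Atp5g1 run from 596 to 4715 bases. Cox4i2, Cox6a2, Cox7b2, Cox8b, Cox8c and Ndufa4l2 fit the symbol rule but had no protein-coding row, so these paralogs could not be compared.

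Other genes that serve the respiratory chain were read from lists beside the members, and none of their genes was called with all 6 libraries. Of 44 tested assembly factors outside the symbol rule, 8 were called lower and 3 higher without replicate 6 (18.2% and 6.82%, against 22.5% and 19.5% of all genes), and their median log2 fold change with all libraries was -0.03. Of 18 electron carriers and enzymes of ubiquinone synthesis, 7 (38.9%) were called lower and 1 (5.56%) higher without replicate 6, against the same shares of all genes, with a median of -0.21 with all libraries. The 18 include Cyc1, a subunit of complex III that the symbol rule does not reach. It was at 77.6, 74.3 and 60.9 in Mcemp1+/+ and 59.2, 52.7 and 70.5 in replicates 4, 5 and 6, and was not called in either fit. In that list Etfb, which brings electrons from fatty acid oxidation, was at 91.9, 91.7 and 91.9 normalized counts in Mcemp1+/+, 68.4 and 60.9 in replicates 4 and 5 and 98.5 in replicate 6 (-0.51 without replicate 6, adjusted p = 0.0019), while Cycs, cytochrome c, was at 75.4, 69.6 and 60.9 against 70.9, 73.0 and 76.7. Etfb thus left the Mcemp1+/+ range in replicates 4 and 5 and Cycs did not.

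In lists of genes that serve the expression of the mitochondrial genome, most log2 fold changes were below 0. Of 78 mitochondrial ribosomal protein genes, 64 had a negative log2 fold change (median -0.16), and 25 (32.1%) were called lower and 1 (1.28%) higher without replicate 6, against 22.5% and 19.5% of all genes in that fit. Of 27 genes for the replication, transcription and RNA processing of mitochondrial DNA, 24 were negative (median -0.18, and -0.28 without replicate 6), and 11 (40.7%) were called lower and none higher without replicate 6, against the same shares of all genes. Lrpprc, which stabilizes mitochondrial mRNAs, was at 115, 113 and 98.6 in Mcemp1+/+ and 89.0, 86.0 and 102 in replicates 4, 5 and 6 (-0.31 without replicate 6, adjusted p = 0.025). The median of the 13 mitochondrial mRNAs was 0.03 in the same fit. Over all genes tested 6862 of 13413 log2 fold changes were negative.

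Of 13 genes of the TCA cycle, 5 (38.5%) were called lower without replicate 6, against 22.5% of all genes (median -0.13 with all libraries), and of 19 genes of mitochondrial import and the outer membrane, 5 (26.3%) were, a share close to that of all genes (median -0.14). Citrate synthase (Cs), the most abundant of the TCA list, was not called in either fit. Among 8 tested regulators of mitochondrial biogenesis, Myc was at 147, 160 and 145 in Mcemp1+/+ and 80.0, 70.3 and 119 in replicates 4, 5 and 6 (-0.78, adjusted p = 0.15, and -1.001 without replicate 6, adjusted p = 3.0e-04), with all libraries labelled Mcemp1-/- below all Mcemp1+/+ libraries. Esrra of the same list went the other way, at 24.5, 26.1 and 24.6 in Mcemp1+/+ and 28.5, 33.3 and 27.0 in replicates 4, 5 and 6. Its log2 fold change was 0.23, and 0.29 without replicate 6 (adjusted p = 0.044 from limma). With all libraries the median of the 8 regulators was -0.03, with 5 negative and 3 positive. The factors whose letters were sought in the promoters had log2 fold changes of 0.06 for Nrf1, -0.05 for Gabpa and -0.01 for Yy1.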

How the data were processed

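RNA was extracted with an RNeasy kit and made into libraries with the KAPA mRNA HyperPrep kit, sequenced on an Illumina NextSeq 500 and processed in Partek, and the submitters' processing notes list mm10 as the build. The authors deposited 1 signal value per gene and library, a normalized count with replicates not pooled. Aligner, annotation, normalization method, gene filter and use of strand were not given in the sources used here, so reads of overlapping genes cannot be told apart. Library totals were 932999 to 989051, a scale set by the normalization rather than a depth. Of low values, 39.7% to 50.5% lay within 0.01 of a whole multiple of the lowest value (up to 20 multiples), so whole reads could not be recovered, the depth is unknown, and no count model was run.

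Members and lists were chosen with earlier results of these data known. Tests used log2(value + 0.479), where the pseudocount corresponds to 0.5 CPM at the mean library total, with limma 3.58.1 in R 4.3.3 (lmFit, eBayes with a trend), across the 13413 genes whose mean reached 1, after a check on simulated data. For low genes this scale gives too small a fold change. Gene starts equal those of GENCODE vM21 for 17220 rows (99.4%). Promoter windows and their coordinates are RefSeq's for GRCm38.p6, whose start can differ from that in the table, as it does for Atp5pb. Genes named were the mitochondrial genes, the 2 nuclear members of each class with the largest and the 2 with the smallest log2 fold change, core subunits, paralogs and the 2 most abundant members of other lists. Ndufs6, Ndufb8, Atp5k, Atp5md, Atp5j, Atp5o and those named only for not overlapping were chosen after their values were seen. Cyc1 was added because it is a subunit of complex III, and Esrra was added after its values were seen. Some genes that this rule names are not reported here but stay in every count. Alternatives were other pseudocounts (0.1 and 2 CPM), other filters (none, or a mean of 5), median-of-ratios scaling, division by the nuclear protein-coding total, eBayes without a trend, each library left out, and, chosen after seeing the data, only the libraries with Xist under 1.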

Additional observations from a re-analysis of the deposited data

How the results depend on the processing

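No paired analysis was possible because the replicate numbers run from 1 to 3 in Mcemp1+/+ and from 4 to 6 in the libraries labelled Mcemp1-/-. Under the 7 alternatives that kept all libraries, no member was called. Dividing by the nuclear protein-coding total moved the median log2 fold change of all genes to -0.07 and those of the members to -0.086 (all), -0.054 (complex I), -0.19 (II), -0.16 (III), -0.067 (IV), -0.10 (V) and -0.11 (nuclear), the log2 ratios of the summed levels to -0.17 (complex II) and -0.11 (nuclear), and the count of lower members without overlap to 22. Median-of-ratios scaling raised the count of higher ones to 9, and eBayes without the trend lowered the count at an unadjusted p under 0.05 to 6. When each library was left out, members called ran from 0 to 11 (lower) and 0 to 6 (higher), members without overlap from 13 to 29 (lower) and 6 to 19 (higher), and members at an unadjusted p under 0.05 from 3 to 25, in each case with the highest value without the library labelled Mcemp1-/- replicate 6. The medians ran from -0.047 to -0.020 (all members), -0.043 to 0.019 (complex I) and -0.065 to -0.021 (complex V), and the log2 fold change of mt-Atp6 from -0.14 to 0.042, turning positive without Mcemp1+/+ replicate 3 (0.0014) or replicate 4 (0.042). With only the libraries with Xist under 1, 19 members were called lower and 5 higher, against 22.8% and 19.1% of all genes in that fit. There 42 and 28 members did not overlap and 34 had an unadjusted p under 0.05. The medians in that fit were -0.041 (all members) and -0.046 (complex I). For these alternatives, the shares of all genes without overlap or at an unadjusted p under 0.05 are not given. Groups of fewer libraries separate more easily, so the counts of members without overlap are no result about the members. The cause of the shifts in these counts and medians was not tested. Depth is unknown, so the counting error of low members such as Cox6b2 and Ndufaf6 cannot be given.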

Other observations

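Of the RNAs of the mitochondrial genome that encode no protein, the tRNAs as a sum differed from the mRNAs in 1 library. The mitochondrial tRNAs summed to 798 normalized counts in Mcemp1+/+ replicate 2 and to between 99.5 and 129 in the other 5 libraries, while the 13 mitochondrial mRNAs of replicate 2 summed to 25721, between those of replicates 1 and 3. Small nucleolar and small nuclear RNAs, which are made in the nucleus, summed to 35265 in the same library and to between 24.8 and 29.1 in the others. The mitochondrial ribosomal RNAs mt-Rnr1 and mt-Rnr2 did not share this, with a sum of 2104 in Mcemp1+/+ replicate 2 and of 1812 to 2078 in the others.

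The nuclear subunits of complexes I to V placed the libraries much as all genes did. By their median absolute log2 difference, the library labelled Mcemp1-/- replicate 6 was 0.07 from Mcemp1+/+ replicate 3, 0.09 from replicate 2 and 0.12 from replicate 1, against 0.14 and 0.12 from replicates 4 and 5. Its nearest library by these genes was thus the other library with Xist.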
